A study of Mus musculus with 11 samples.

Results

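The 9 forkhead genes of the facial mesenchyme were followed through all 11 RNA-seq libraries of the series: *Foxf1*, *Foxf2*, *Foxc1*, *Foxc2*, *Foxd1*, *Foxd2*, *Foxp1*, *Foxp2* and *Foxp4*. They are 9 of 38561 genes counted and 9 of 44 forkhead family genes counted, and were found by matching each symbol to the Ensembl identifier in the count files. Total RNA was taken from explants of the facial processes of mixed-strain mouse embryos at embryonic day 10.5 (E10.5), which comprise the mandibular and maxillary parts of the first branchial arch and the nasal processes. Libraries labelled wild type (wt, n = 2) were compared with libraries homozygous for a mutation of *Wnt9b* (Wnt9bKO, n = 3), of *Rspo2* (Rspo2KO, n = 3) or of both genes (DKO, n = 3). The question was how the level of each forkhead gene differs when the ectodermal ligand WNT9b, the WNT potentiator RSPO2, or both are missing. Nothing in the labels says whether a library came from a single embryo or a litter, so p-values measure the spread between these samples.

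Forkhead proteins bind DNA through a winged-helix domain and are named by subfamily. FOXF and FOXD factors act in the neural crest-derived mesenchyme of the face, where several of them respond to Sonic hedgehog from the epithelium. FOXC1 and FOXC2 act in neural crest and mesodermal mesenchyme of the skull, eye and vessels. The FOXP factors are repressors that pair with each other through a leucine zipper, and are known from the developing lung, heart and brain.

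All 9 genes passed the filter on low counts and were among the 17317 genes tested, at total counts of 11136166 to 18017344 per library. The values are CPM, that is, counts scaled to a common library total after TMM normalization. The targeted genes were read first. *Wnt9b* RNA was not lower in its mutants, at 10.8 to 13.4 CPM in wt, 16.2 to 23.3 CPM in Wnt9bKO and 18.3 to 20.2 CPM in DKO, so its level does not check those labels. In the libraries labelled Wnt9bKO 2 and DKO 3 the *Rspo2* level went against the label. It was 2.86 CPM in Wnt9bKO 2 and 15.5 CPM in DKO 3, against 14.8 to 16.01 CPM in wt and 4.74 to 6.59 CPM in Rspo2KO, so the main results were also taken without both libraries. *Xist*, the RNA of the inactive X chromosome, was at 680 CPM or more in the wt and DKO libraries. It was at 1.94 CPM or less in the Wnt9bKO and Rspo2KO libraries. Sex and genotype therefore cannot be told apart where a single mutant is set against wt or against DKO, whereas DKO and wt share high *Xist*. All 12 markers of neural crest mesenchyme were present, with summed levels of 1845 to 1929 CPM in wt, 1481 to 1670 in Rspo2KO, 1498 to 2798 in Wnt9bKO and 1870 to 2121 in DKO. In such tissue, fewer cells of a type and less RNA per cell cannot be told apart.

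Most of the 9 genes differed from wt in the genotypes with the *Wnt9b* mutation, with *Foxf1* lower and the other called genes higher. *Foxp1* rose the most and *Foxf1* was the only one called lower. With edgeR's quasi-likelihood test and Benjamini-Hochberg adjusted p under 0.05, 7 of 9 were called in Wnt9bKO against wt, where 32.8% of all genes tested were called. Of these, 6 were higher (background 16.8%) and 1 was lower (background 16%). In DKO against wt 6 of 9 were called (background 27.5%), 5 higher (background 14.3%) and 1 lower (background 13.1%). In Rspo2KO against wt 0 of 9 were called, as were only 0.0346% of all genes. There 3 of the 9, *Foxf1*, *Foxp1* and *Foxp2*, had an unadjusted p under 0.05, as did 2069 of the 17317 genes tested. DESeq2 called *Foxf1* and *Foxp1* in that comparison (0.63% of all genes). With a rule after the study's fold threshold, here an unadjusted edgeR p under 0.05 and a change over 1.5-fold, 3 were called in Wnt9bKO (background 24.8%), 4 in DKO (background 20.4%) and 2 in Rspo2KO (background 4.68%). The median log2 fold change over the 9 genes was 0.54 in Wnt9bKO, 0.47 in DKO and 0.07 in Rspo2KO, where the median over all genes was 0.01, 0.01 and 0.00. The counts rest on both wt libraries: without wt 1 or without wt 2, 3 of 9 were called in Wnt9bKO and 3 of 9 in DKO, with the same 3 genes, *Foxd1*, *Foxf1* and *Foxp1*, in each. The share called over all genes fell as well, to 17.6% and 18.8% in Wnt9bKO and to 12.7% and 14.4% in DKO. Without the libraries labelled Wnt9bKO 2 and DKO 3, the counts were 6 and 6 (29.7% and 25.6% of all genes).

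**Figure D1:**
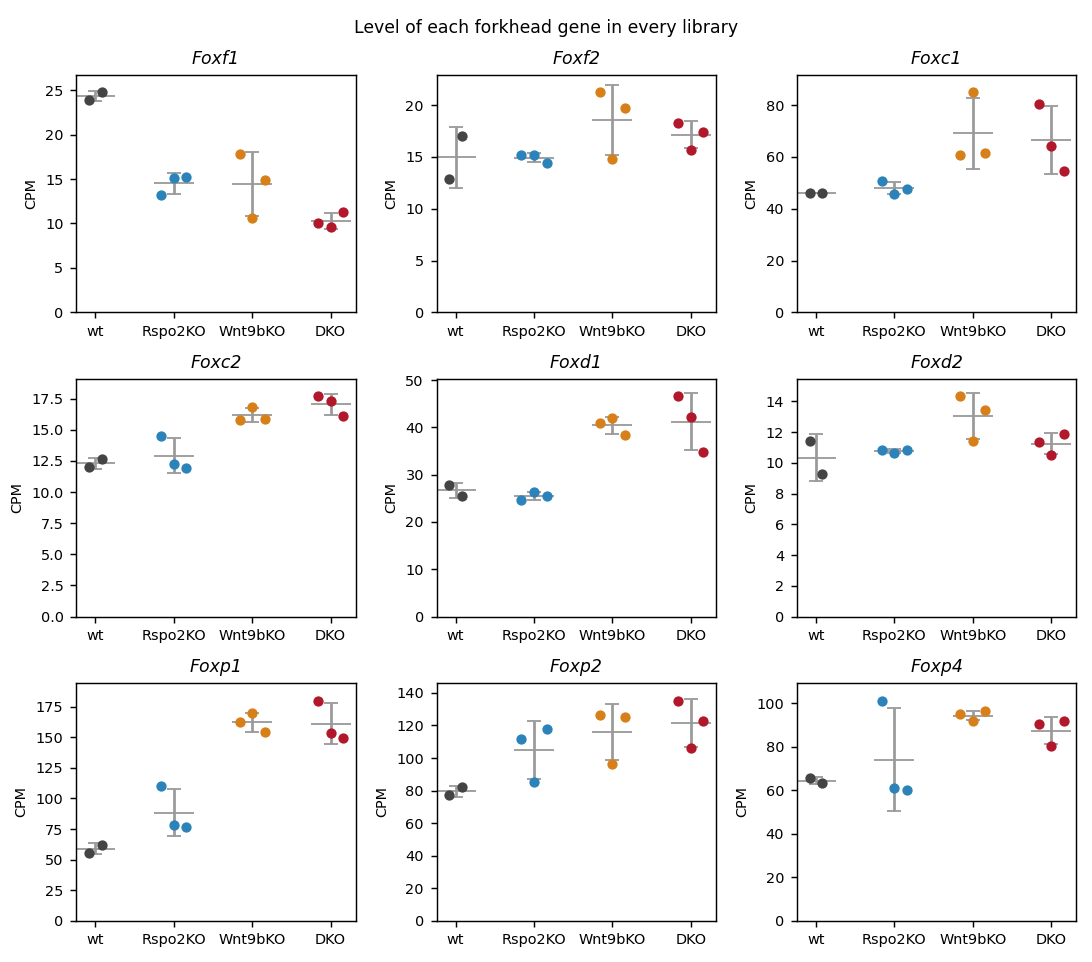
CPM (y axis, from 0) of each of the 9 forkhead genes in every library, by genotype. Points are libraries, the horizontal bar is the group mean and the whiskers its SD (n = 2 for wt, 3 for each mutant). *Foxf1* is the gene with every mutant library below both wt libraries, and *Foxp1* has every mutant library above them.

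*Foxf1* (ENSMUSG00000042812, chr8:121084386-121088144, plus strand, GRCm38) encodes a mesenchymal factor downstream of hedgehog signaling. The wt libraries had 23.9 and 24.8 CPM. It was 13.2, 15.1 and 15.2 CPM in Rspo2KO, 17.8, 10.7 and 14.9 CPM in Wnt9bKO, and 10.04, 9.59 and 11.3 CPM in DKO. Every mutant library lay below both wt libraries, and the DKO libraries lay below all Rspo2KO libraries. The share of all genes with such a separation of libraries was not counted, here or for the genes below. The log2 fold change was -0.75 ± 0.18 (SE, adjusted p = 0.00493) in Wnt9bKO and -1.24 ± 0.18 (adjusted p = 0.000228) in DKO, which leaves 0.423 of the wt level. In Rspo2KO the difference was the same size, -0.75 ± 0.18, with an unadjusted p of 0.00076 and an adjusted p of 0.206, so it was not called. Over 22 alternative analyses, the call held in 22 for Wnt9bKO (log2 fold change -0.93 to -0.44) and in 22 for DKO (-1.32 to -1.13), and *Foxf1* was called in 3 for Rspo2KO (-0.79 to -0.68).

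*Foxf2* (ENSMUSG00000038402, chr13:31625816-31631403, plus strand), the paralog of *Foxf1* that is needed for closure of the palate, did not follow it. Its level was 12.9 and 17.0 CPM in wt, 15.2, 15.2 and 14.4 CPM in Rspo2KO, 21.2, 14.8 and 19.7 CPM in Wnt9bKO, and 18.3, 15.7 and 17.4 CPM in DKO. Each mutant group overlapped the wt range. The log2 difference was 0.31 (95% interval -0.05 to 0.67) in Wnt9bKO, -0.01 (-0.37 to 0.35) in Rspo2KO and 0.19 (-0.17 to 0.55) in DKO. In Wnt9bKO *Foxf2* was called in 3 of 22 alternatives. These were an offset for GC content and gene length (0.46, adjusted p = 0.0278), the fit without Wnt9bKO 2 (0.47, adjusted p = 0.0331), and the offset without Wnt9bKO 2 and DKO 3 (0.56, adjusted p = 0.0127). The ratio of *Foxf1* to *Foxf2* within a library, per kb of exon and chosen after its values were seen, was 1.82 and 1.42 in wt. It was 0.848, 0.975 and 1.03 in Rspo2KO, 0.819, 0.706 and 0.741 in Wnt9bKO, and 0.538, 0.598 and 0.634 in DKO. Thus *Foxf1* was the more abundant of the pair in both wt libraries and the less abundant in all 6 libraries with the *Wnt9b* mutation.

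*Foxf1* lies in a cluster with *Foxc2* and *Foxl1* on chromosome 8, with 28027 bases between *Foxf1* and *Foxc2*. The genes of this cluster did not move together. *Foxl1* had log2 differences of -0.02 in Wnt9bKO, 0.03 in Rspo2KO and -0.19 in DKO (lowest adjusted p = 0.48), and *Foxc2* was higher in Wnt9bKO and DKO. The long non-coding RNA *Fendrr*, which lies 1276 bases from *Foxf1* on the other strand, was measured at 19 to 83 counts per library, with differences of 0.52 ± 0.40, 0.28 ± 0.41 and -0.18 ± 0.42, none called. *Mthfsd*, between *Foxf1* and *Foxc2*, was called lower in Wnt9bKO (log2 fold change -0.44, adjusted p = 0.0189) and DKO (-0.46, adjusted p = 0.0178), with -0.04 in Rspo2KO. *Gm20388*, annotated across *Foxf1* and *Foxc2*, held 0 counts in every library. Whether the counting used strand is not given in the sources used here, so reads from the strands of nearby antisense genes cannot be told apart.

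*Foxc1* (ENSMUSG00000050295, chr13:31806633-31812476, plus strand), a regulator of skull and eye mesenchyme, was higher in both genotypes with the *Wnt9b* mutation. It stood at 46.2 and 46.2 CPM in wt, 50.6, 45.7 and 47.8 CPM in Rspo2KO, 60.8, 85.0 and 61.5 CPM in Wnt9bKO, and 80.6, 64.3 and 54.8 CPM in DKO. No library with the *Wnt9b* mutation overlapped wt or Rspo2KO. The log2 fold change was 0.58 ± 0.17 (adjusted p = 0.0163) in Wnt9bKO, 0.53 ± 0.17 (adjusted p = 0.0301) in DKO and 0.06 ± 0.17 (adjusted p = 0.932) in Rspo2KO. The highest Wnt9bKO value came from the library labelled Wnt9bKO 2, and without it and DKO 3 the changes were 0.40 (adjusted p = 0.0317) and 0.65 (adjusted p = 0.00322). The Wnt9bKO call held in 19 of 22 alternatives (log2 fold change 0.26 to 0.68) and the DKO call in 16 of 22 (0.37 to 0.65). Without wt 1 or wt 2 the gene was not called in either comparison (adjusted p = 0.093 to 0.146). In DKO it was also lost with the offset for GC content and gene length (0.42, adjusted p = 0.0748), without DKO 1 (0.37, adjusted p = 0.129) and without DKO 2 (0.55, adjusted p = 0.0526), and in Wnt9bKO with the offset and without Wnt9bKO 2 and DKO 3 (0.26, adjusted p = 0.129).

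*Foxc2* (ENSMUSG00000046714, chr8:121116171-121118895, plus strand), which acts in vessel and palate mesenchyme, had 12.0 and 12.6 CPM in wt, 14.5, 12.3 and 11.9 CPM in Rspo2KO, 15.8, 16.8 and 15.9 CPM in Wnt9bKO, and 17.7, 17.3 and 16.1 CPM in DKO. All 6 libraries with the *Wnt9b* mutation lay above the other 5. The log2 fold change was 0.39 ± 0.13 (adjusted p = 0.037) in Wnt9bKO and 0.47 ± 0.13 (adjusted p = 0.0192) in DKO, against 0.07 ± 0.14 (adjusted p = 0.887) in Rspo2KO. The Wnt9bKO call held in 11 of 22 alternatives, with fold changes of 0.35 to 0.49, and was lost in DESeq2 (adjusted p = 0.053) and without the libraries labelled Wnt9bKO 2 and DKO 3 (adjusted p = 0.0895). The DKO call held in 18 of 22.

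*Foxd1* (ENSMUSG00000078302, chr13:98354242-98359305, plus strand), a factor of facial and kidney stroma and of the temporal retina, separated the genotypes cleanly. It was at 27.9 and 25.6 CPM in wt and at 24.6, 26.4 and 25.5 CPM in Rspo2KO. It was at 40.9, 42.0 and 38.3 CPM in Wnt9bKO and at 46.6, 42.3 and 34.8 CPM in DKO. All 6 libraries with the *Wnt9b* mutation were above the other 5, and Rspo2KO overlapped wt. The log2 fold change was 0.60 ± 0.13 (adjusted p = 0.00286) in Wnt9bKO, 0.63 ± 0.13 (adjusted p = 0.00277) in DKO and -0.07 ± 0.13 (adjusted p = 0.881) in Rspo2KO. Both calls held in 22 of 22 alternatives, with fold changes of 0.51 to 0.66 and 0.53 to 0.73. The bases before its RefSeq start (GRCm38.p6, chr13:98353995-98354241, plus strand) are shown because *Foxd1* rose in both genotypes with the *Wnt9b* mutation under every alternative run. The window holds none of the TCF/LEF, GLI and forkhead motifs searched for.

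Foxd1: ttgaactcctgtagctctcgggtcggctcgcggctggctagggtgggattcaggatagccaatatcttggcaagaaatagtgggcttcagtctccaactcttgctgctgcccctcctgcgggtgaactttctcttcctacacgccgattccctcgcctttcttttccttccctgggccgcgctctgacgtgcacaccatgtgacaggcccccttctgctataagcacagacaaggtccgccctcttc

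*Foxd2* (ENSMUSG00000055210, chr4:114906282-114908873, minus strand), the close relative of *Foxd1*, was not called in any comparison of the main analysis. Its level was 11.4 and 9.24 CPM in wt, 10.9, 10.6 and 10.8 CPM in Rspo2KO, 14.3, 11.4 and 13.4 CPM in Wnt9bKO, and 11.3, 10.5 and 11.9 CPM in DKO. Wnt9bKO and DKO overlapped wt. The log2 difference was 0.34 (95% interval 0.02 to 0.67, unadjusted p = 0.0411, adjusted p = 0.0997) in Wnt9bKO, 0.13 (-0.20 to 0.46) in DKO and 0.07 (-0.27 to 0.40) in Rspo2KO. In Wnt9bKO *Foxd2* was called in 3 of 22 alternatives. These were the offset for GC content and gene length (0.43, adjusted p = 0.0419), the fit without Wnt9bKO 2 (0.46, adjusted p = 0.0397), and the offset without Wnt9bKO 2 and DKO 3 (0.46, adjusted p = 0.0424). *Foxd2os*, 384 bases away on the other strand, had differences between -0.10 and 0.11 against wt.

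*Foxp1* (ENSMUSG00000030067, chr6:98925338-99522721, minus strand), a repressor needed in heart, lung and lymphocytes, changed the most of the 9 genes. It was at 55.6 and 62.0 CPM in wt, 110, 78.6 and 76.5 CPM in Rspo2KO, 162, 170 and 155 CPM in Wnt9bKO, and 180, 154 and 150 CPM in DKO. The 3 levels were separate: every Rspo2KO library was above wt, and every library with the *Wnt9b* mutation was above every Rspo2KO library. It rose 2.76-fold in Wnt9bKO (log2 fold change 1.46 ± 0.15, adjusted p = 1.84e-05) and 2.74-fold in DKO (1.45 ± 0.15, adjusted p = 2.12e-05). In Rspo2KO the difference was 0.59 ± 0.15, with an unadjusted p of 0.00149 and an adjusted p of 0.216. Without the library Rspo2KO 1 it was 0.40 (adjusted p = 0.53). The Wnt9bKO and DKO calls held in 22 of 22 alternatives each, and the lowest log2 fold changes, 1.10 and 1.13, came from analyses with the offset for GC content and gene length. *Gm20696*, an annotated gene that shares 300 exon bases with *Foxp1* on the same strand, held 11 to 75 counts per library and was also called higher (log2 fold change 1.72 in Wnt9bKO and 1.46 in DKO), and reads in the shared bases cannot be assigned to either gene. *Gm20705*, annotated within the span of *Foxp1*, was called higher in Wnt9bKO (1.04, adjusted p = 0.0182) and not in DKO (0.45, adjusted p = 0.315).

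RefSeq gives *Foxp1* 3 start sites in the promoter table, and the bases before 2 of them are shown because each holds the TCF/LEF motif CTTTGTT, set in capitals (on the opposite strand, as AACAAAG, in the upstream window). Both lie within the introns of *Foxp1* and *Gm20696*, at chr6:99521163-99521243 and chr6:99266533-99266765 (GRCm38.p6, minus strand), and stop before the nearest annotated exon.

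Foxp1, upstream start: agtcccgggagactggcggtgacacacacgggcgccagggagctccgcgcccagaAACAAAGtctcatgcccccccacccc

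Foxp1, middle start: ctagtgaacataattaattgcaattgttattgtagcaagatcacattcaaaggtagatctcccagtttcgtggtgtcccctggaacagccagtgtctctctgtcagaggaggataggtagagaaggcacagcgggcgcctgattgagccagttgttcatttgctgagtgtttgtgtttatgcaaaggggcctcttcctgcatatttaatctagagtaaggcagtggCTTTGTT

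Counted from the respective start site, the motif begins at base -195 and at base -24. In the 250 bases before a start, CTTTGTT occurs on either strand in 5.03% of 32851 windows in the table, and in 2 of the 8 windows of the forkhead genes, both of *Foxp1*. The other TCF/LEF form, CTTTGAT (3.21% of all windows), the GLI core CCACCCA (8.11%) and the forkhead motif TGTTTAC (3.17%) occur in 0 of the 8. CTTTGTT and TGTTTAC can share the letters TGTT, and a match is a description of these letters, not a bound site. *Foxc2*, *Foxf1* and *Foxp2* were not analysed here for motifs.

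*Foxp2* (ENSMUSG00000029563, chr6:14901349-15441977, plus strand), known for its part in vocal motor circuits and lung, had 77.0 and 82.0 CPM in wt, 112, 85.0 and 118 CPM in Rspo2KO, 127, 96.0 and 125 CPM in Wnt9bKO, and 135, 106 and 123 CPM in DKO. All 9 mutant libraries were above both wt libraries. It was called in Wnt9bKO (log2 fold change 0.54 ± 0.16, adjusted p = 0.0166) and DKO (0.61 ± 0.16, adjusted p = 0.0107), and not in Rspo2KO (0.40 ± 0.16, unadjusted p = 0.0232, adjusted p = 0.333). With the offset for GC content and gene length it was 0.19 in Wnt9bKO (adjusted p = 0.297) and 0.26 in DKO (adjusted p = 0.172), and no longer called. Counted over all annotated transcripts of a gene, *Foxp2* has the most exon bases of the 9, 16346, followed by *Foxp1* with 13751.

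*Foxp4* (ENSMUSG00000023991, chr17:47867133-47924645, minus strand), a FOXP factor of lung and gut epithelium and of neural tissue, had 65.5 and 63.3 CPM in wt and 94.9, 91.9 and 96.3 CPM in Wnt9bKO. In DKO it had 90.3, 80.2 and 91.8 CPM. The Rspo2KO libraries were apart from each other, with 101 CPM in Rspo2KO 1 and 61.0 and 60.2 CPM in the other two. It was called in Wnt9bKO (log2 fold change 0.55 ± 0.18, adjusted p = 0.0285) and missed the threshold in DKO (0.44 ± 0.18, adjusted p = 0.0795). No DKO library overlapped wt, a separation whose share over all genes was not counted. Without Rspo2KO 1, which belongs to neither group, the DKO difference of 0.44 was called (adjusted p = 0.00255). With the offset for GC content and gene length *Foxp4* was not called in either (adjusted p = 0.0692 and 0.173). *Mdfi*, 32442 bases from *Foxp4*, was called lower (-0.999 in Wnt9bKO, adjusted p = 0.000209, and -0.94 in DKO, adjusted p = 0.000377). The other tested genes within 50 kb of the 9, *Gm15556* within *Foxp4*, *1700018A04Rik* by *Foxf2*, *Gmds* by *Foxc1*, *Gm9828* and *Btf3* by *Foxd1* and *9130410C08Rik* by *Foxd2*, were not called against wt (lowest adjusted p = 0.15, for *Gm15556*).

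**Figure D2:**
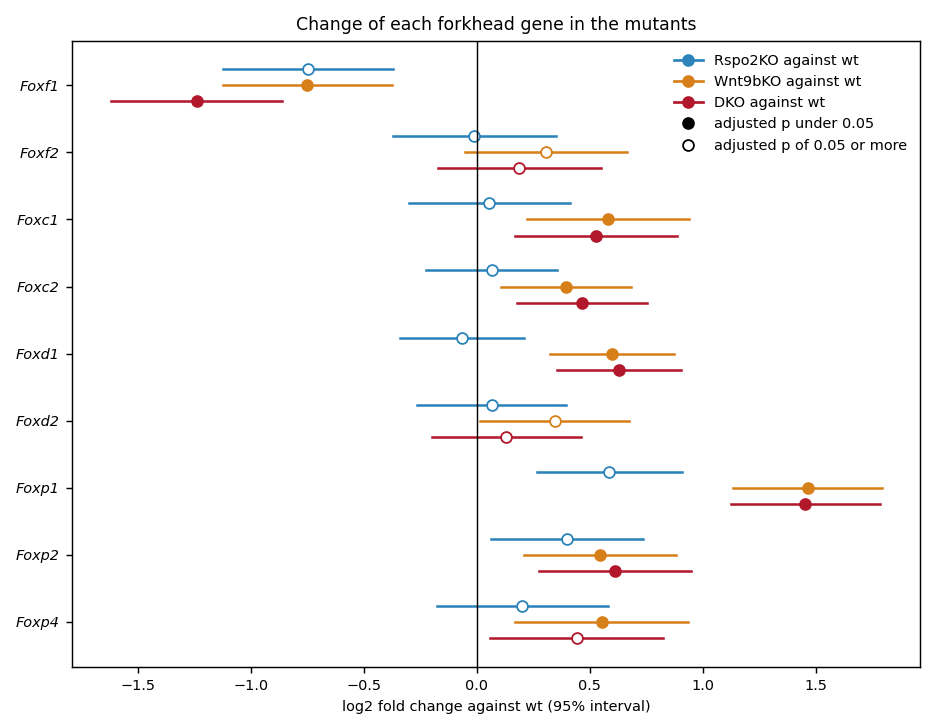
Log2 fold change of each of the 9 forkhead genes against wt (x axis) with its 95% interval, by mutant genotype. Filled points have an adjusted p under 0.05 in edgeR's quasi-likelihood test. *Foxf1* lies left of 0 in all 3 genotypes, at -0.75, -0.75 and -1.24, and *Foxp1* lies farthest to the right.

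The libraries differed in how much of their counts fell on long genes, and the part of this in the forkhead results was not tested. The longest 25% of protein-coding genes tested took 31.3% to 31.5% of protein-coding counts in wt, 31.6% to 35.8% in Rspo2KO, 37.6% to 38.3% in Wnt9bKO and 35.8% to 37.3% in DKO. Small nuclear RNAs summed to 352 to 420 CPM in wt and Rspo2KO and to 70.1 to 82.7 CPM in Wnt9bKO and DKO. The small nuclear RNA sum cannot be told apart from the *Wnt9b* mutation itself. The long-gene share hardly can, since Rspo2KO 1 was the only library without that mutation to reach the range of those with it. Rspo2KO 1, with the highest long-gene share among Rspo2KO libraries, also had the highest *Foxp1* and *Foxp4* of its group, 110 and 101 CPM. It had the lowest *Foxf1* and *Foxd1* of its group, 13.2 and 24.6 CPM. Between the other Rspo2KO libraries the order was different: Rspo2KO 3, with a share of 33.4%, had 76.5 CPM of *Foxp1* and 60.2 CPM of *Foxp4*, and Rspo2KO 2, with 31.6%, had 78.6 and 61.0 CPM. Rspo2KO 1 and DKO 3 had the same share, 35.8%, with *Foxd1* at 24.6 and 34.8 CPM, *Foxp1* at 110 and 150 CPM, *Foxf1* at 13.2 and 11.3 CPM and *Foxp4* at 101 and 91.8 CPM. With the offset for GC content and gene length, the called genes numbered 7 of 9 in Wnt9bKO (33.7% of all genes) and 4 of 9 in DKO (29.3%) against wt. In Wnt9bKO *Foxd2* and *Foxf2* were called with it, and *Foxp2* and *Foxp4* were not. *Foxf1*, *Foxd1*, *Foxc2* and *Foxp1* were called in both comparisons.

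**Figure D3:**
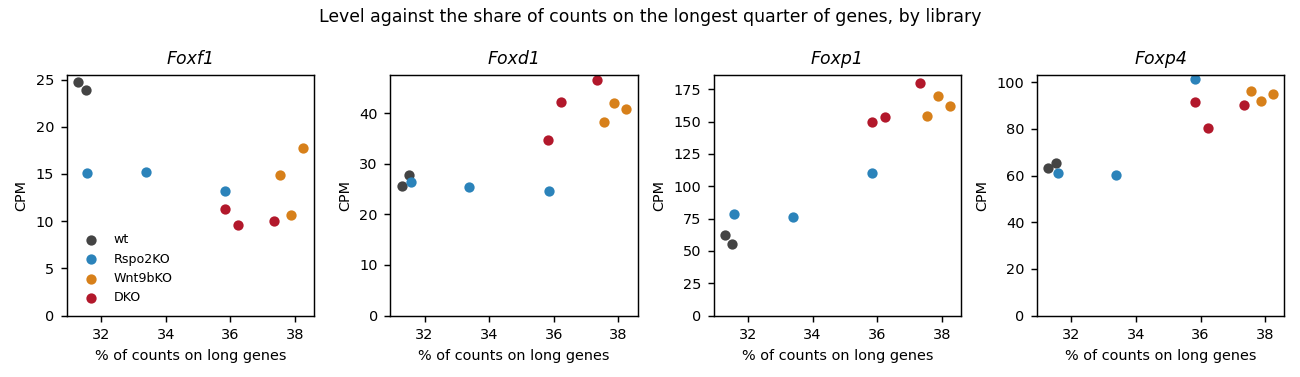
CPM (y axis, from 0) of *Foxf1*, *Foxd1*, *Foxp1* and *Foxp4* against the percent of protein-coding counts on the longest 25% of genes (x axis), one point per library, coloured by genotype. Rspo2KO 1 (35.8% on the x axis) stands above the other Rspo2KO libraries for *Foxp1* and *Foxp4* and not for *Foxd1* or *Foxf1*.

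Loss of both genes was set against loss of either. Sex cannot be told apart from genotype in DKO against either single mutant, because *Xist* was high in DKO and low in both. In DKO against Rspo2KO 5 of 9 were called (background 18.2%). *Foxp1* (log2 fold change 0.87 ± 0.13, adjusted p = 0.00045), *Foxd1* (0.69 ± 0.11, adjusted p = 0.000798), *Foxc1* (0.47 ± 0.15, adjusted p = 0.0379) and *Foxc2* (0.40 ± 0.12, adjusted p = 0.0291) were the 4 higher genes (background 9.15%). *Foxf1* was the 1 lower gene (background 9.07%), at -0.49 ± 0.16 with an adjusted p of 0.0499, just inside the threshold, and it was called in 11 of 22 alternatives. In all, 2 of 9 were called without Rspo2KO 2, without Rspo2KO 3, without DKO 1 or without DKO 2, and 3 of 9 without wt 1 or wt 2. The share over all genes was 10%, 9.75%, 10.8% and 10.9% in the first 4 of these fits and 16.2% and 16.3% in the others. In DKO against Wnt9bKO 0 of 9 were called by edgeR and 0 by DESeq2 (background 0.121%). The gene with the smallest unadjusted p there, 0.00918, was *Foxf1*, at -0.49 ± 0.16 with an adjusted p of 0.544, and no other of the 9 had an unadjusted p under 0.05. Of the 17317 genes tested, 975 did. DKO and Wnt9bKO overlapped in *Foxf1* only between Wnt9bKO 2, at 10.7 CPM, and DKO 3, at 11.3 CPM. These are the libraries whose *Rspo2* level went against the label. Without Wnt9bKO 2 and DKO 3 the difference was -0.74 ± 0.15 (unadjusted p = 0.000307, adjusted p = 0.132), and with the offset for GC content and gene length in addition -0.77 (adjusted p = 0.042). In Wnt9bKO against Rspo2KO 3 of 9 were called (background 26%), *Foxp1* (0.88 ± 0.13), *Foxd1* (0.66 ± 0.11) and *Foxc1* (0.52 ± 0.15). *Foxf1* differed by -0.004 there, with a 95% interval of -0.35 to 0.34. This count was 5 without Rspo2KO 1 (30.6% of all genes) and 2 without Rspo2KO 2 (15.5%) or Rspo2KO 3 (15.2%).

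The interaction, DKO minus both single mutants plus wt, asks whether the changes add on the log2 scale. It sets the groups with high *Xist*, wt and DKO, against those with low *Xist*, so it cannot be told apart from a difference by sex. For 0 of 9 genes it was called, by edgeR or by DESeq2 (background 0.0635%). By edgeR 1 of 9, *Foxp1*, had an unadjusted p under 0.05, as did 1636 of the 17317 genes tested. The *Foxf1* changes of the single mutants summed to -1.50, beside -1.24 measured in DKO, and the interaction was 0.26 (95% interval -0.26 to 0.77, adjusted p = 0.759). For *Foxp1* the sum was 2.05, beside 1.45 in DKO, with an interaction of -0.60 (-1.02 to -0.18, unadjusted p = 0.00873, adjusted p = 0.427). For *Foxd1* the sum was 0.53 beside 0.63, and for *Foxc1* 0.64 beside 0.53. For 8 of the 9 genes the 95% interval of the interaction included 0, which does not show that their changes add.

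**Figure D4:**
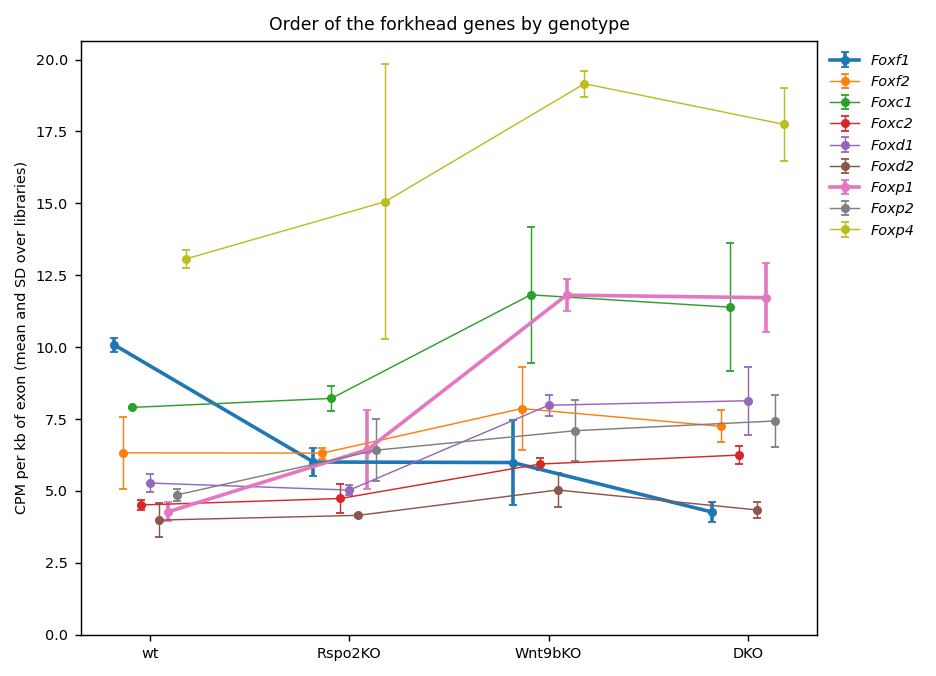
Level of the 9 forkhead genes in CPM per kb of exon (y axis, from 0), as mean and SD over the libraries of each genotype (n = 2 for wt, 3 for each mutant), points shifted sideways for legibility. Exon bases are those of all annotated transcripts of a gene together. *Foxf1* goes from the second highest mean in wt (10.1) to the lowest in DKO (4.27).

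Divided by exon length, the levels can be ordered within a genotype. Exon length here takes all annotated transcripts of a gene together, so it can exceed that of any single transcript. The places of genes with many exon blocks, such as *Foxp1* (34) and *Foxp2* (27), depend on this choice. *Foxp4* had the highest mean in all 4 genotypes, from 13.1 CPM per kb in wt to 19.2 in Wnt9bKO, and no other gene's libraries reached its range. In wt *Foxf1* came next at 10.1 CPM per kb, followed by *Foxc1* at 7.91, *Foxf2* at 6.33, *Foxd1* at 5.28, *Foxp2* at 4.86, *Foxc2* at 4.51, *Foxp1* at 4.27 and *Foxd2* at 3.99. *Foxf2* and *Foxd1* overlapped, as did *Foxc2*, *Foxp1* and *Foxd2*. In DKO *Foxp1* was in the second place at 11.7 CPM per kb, overlapping *Foxc1* at 11.4, and *Foxf1* was last at 4.27, overlapping *Foxd2* at 4.34. In Wnt9bKO *Foxf1* had 5.99 CPM per kb and overlapped *Foxc2* at 5.94, and in Rspo2KO it had 6.01 and overlapped *Foxf2* at 6.32.

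Within genotypes, the genes differed in how they varied between libraries. After each genotype's mean was subtracted, the Pearson correlation of log2 CPM over 11 libraries between pairs of the 9 genes ranged from -0.77 to 0.95, with a median of 0.15 over 36 pairs. These values are descriptions, since the libraries share depth and composition. Single libraries can also weigh on r. Rspo2KO 1 was the highest of its group in *Foxp1*, *Foxc2* and *Foxp4* (110, 14.5 and 101 CPM). Wnt9bKO 2 had the highest *Foxc1* and the lowest *Foxf1* of its group (85.0 and 10.7 CPM). Values without these libraries were not computed. Among 36 forkhead genes tested, the one most like *Foxp1* was *Foxc2* (r = 0.95), and the one most like *Foxp4* was *Foxm1* (r = 0.94). *Foxf2* was most like *Foxf1* (r = 0.74), while *Foxf1* was most like *Foxd3* (r = 0.80) and least like *Foxc1* among the 9 (r = -0.77). *Foxd1* was most like *Foxc1* (r = 0.70), *Foxd2* like *Foxd3* (r = 0.71), *Foxc1* like *Foxr2* (r = 0.77) and *Foxp2* like *Foxl2* (r = 0.92).

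Of 35 other forkhead genes, 27 were tested. In Wnt9bKO 9 were called higher and 1 lower, with a median log2 fold change of 0.33, and in DKO 7 higher and 1 lower, with a median of 0.41. Over all genes tested 32.8% and 27.5% were called, so the counts in both directions together lie near the background. By direction, the background was 16.8% higher and 16% lower in Wnt9bKO, and 14.3% and 13.1% in DKO. Most called genes of this list were in the higher direction, as among the 9 genes. The median over all genes was 0.01 in both comparisons. In Rspo2KO 0 were called, with a median of 0.10. Among the called genes with the smallest p in Wnt9bKO were *Foxk1* (log2 fold change 1.31), a regulator of metabolism and autophagy, *Foxo1* (1.11), *Foxm1* (1.05), which drives mitotic genes, and *Foxe1* (1.20), a thyroid and palate factor. In DKO these genes were also called, at 1.16, 1.07, 0.88 and 0.995. *Foxk1* rose from a mean of 16.9 CPM in wt to 42.1 CPM in Wnt9bKO and 37.8 CPM in DKO.

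Hedgehog pathway genes are set beside the FOXF and FOXD genes because these respond to that pathway. Of 18 tested, 10 were called higher (background 16.8%) and 1 lower (background 16%) in Wnt9bKO. In DKO 5 were called higher (background 14.3%) and 1 lower (background 13.1%), and in Rspo2KO 0 were called. The leading genes were *Scube3* (log2 fold change 0.88 in Wnt9bKO and 0.87 in DKO), *Ptch1*, the receptor and a target of the pathway (1.02 and 0.73), and *Disp1*, which releases the ligand (0.68 and 0.67). The median over the list was 0.36, 0.26 and 0.20 in Wnt9bKO, DKO and Rspo2KO. *Foxf1* thus had the opposite sign to the called hedgehog genes other than *Smo* (-0.43 and -0.46, named after its values were seen), and *Foxd1* the same sign.

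FOXP repressors work with CtBP and the NuRD complex, and 12 genes for these partners were tested. In Wnt9bKO 2 were called higher (background 16.8%) and 4 lower (background 16%). In DKO 2 were called higher (background 14.3%) and 5 lower (background 13.1%), and in Rspo2KO 0 were called. *Mbd3* (-1.68 in Wnt9bKO and -1.71 in DKO), *Hdac1* (-1.64 and -1.65) and *Ctbp1* (-0.72 and -0.73) were lower while *Foxp1* was higher. *Hdac1* went from 123 CPM in wt to 39.7 CPM in Wnt9bKO and 39.3 CPM in DKO. Of 9 genes named as targets of FOX factors in the face, 2 were called in Wnt9bKO, the cartilage collagen *Col2a1* (0.65) and its activator *Sox9* (0.69). In DKO 1 was called, *Col2a1* (0.43), and in Rspo2KO 0. The share called over all genes was 32.8% in Wnt9bKO and 27.5% in DKO.

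Markers of some other cell types differed between genotypes, and their part in the results was not tested. Of 9 forebrain and eye markers, 7 were called higher in Wnt9bKO (background 16.8%) and 4 in DKO (background 14.3%). Their summed level was 113 to 126 CPM in wt, 133 to 151 in Rspo2KO, 138 to 288 in Wnt9bKO and 157 to 197 in DKO. *Foxd1* and the FOXP genes are also expressed in forebrain or eye. Erythroid markers were lower, 1787 to 2367 CPM in Wnt9bKO and 1740 to 2846 in DKO, against 3940 to 4894 in wt and 4452 to 5757 in Rspo2KO. Neuron markers summed to 524 to 571 CPM in wt and 624 to 695 in Rspo2KO. They summed to 320 to 464 in Wnt9bKO, with 2 of 9 called lower (background 16%). In DKO the sum was 574 to 618, with 3 called higher (background 14.3%). Surface epithelium markers summed to 225 to 273 CPM over all libraries. Heart markers summed to 61.5 CPM in 1 wt library and to 12.3 CPM or less in the others, with 3 of 7 under 1 CPM on average. Endothelial markers, set beside the vessel factor *Foxc2*, summed to 215 to 240 CPM in wt, 244 to 264 in Rspo2KO, 236 to 254 in Wnt9bKO and 235 to 256 in DKO. In DKO 2 were called higher and 2 lower (background 14.3% and 13.1%). In Wnt9bKO 2 were called higher and 3 lower (background 16.8% and 16%), and in Rspo2KO 0 were called.

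**Figure D5:**
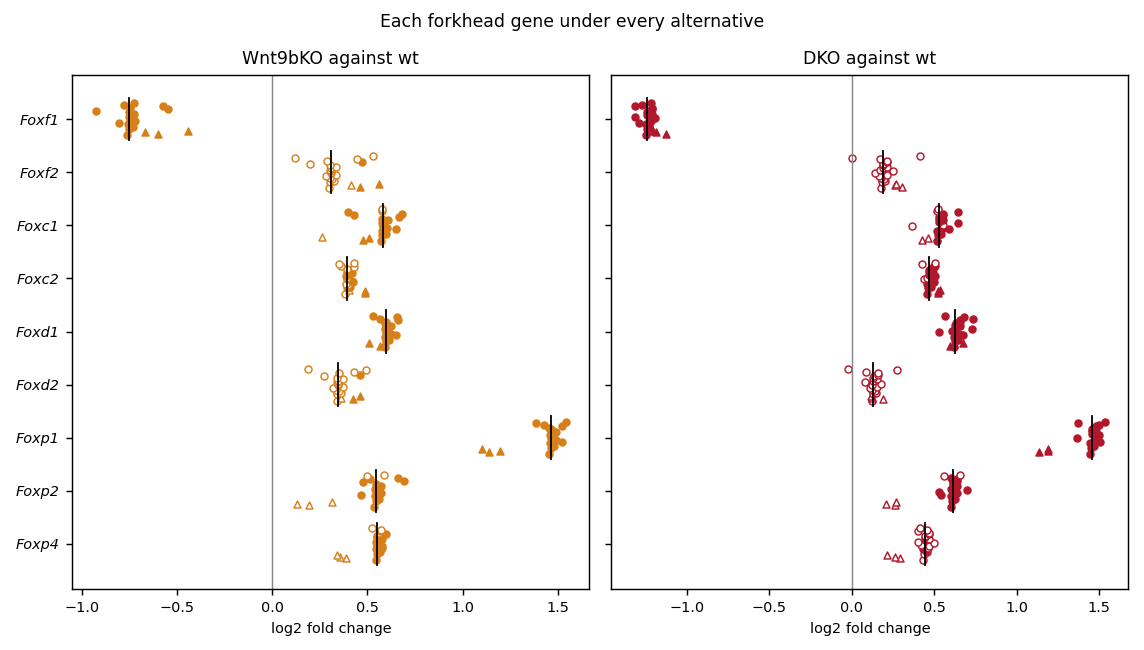
Log2 fold change (x axis) of each forkhead gene in Wnt9bKO (left) and DKO (right) against wt under 22 alternative analyses. Filled symbols have an adjusted p under 0.05, triangles are the analyses with an offset for GC content and gene length, and the black line is the main value. *Foxf1*, *Foxd1* and *Foxp1* are filled throughout, and the triangles of *Foxp1*, *Foxp2* and *Foxp4* lie nearest to 0.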

How the data were processed

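RNA was extracted with TRIZOL from facial processes and sequenced as single-end reads. According to the study's methods, reads were trimmed with Cutadapt, aligned to GRCm38 with STAR and counted per gene with HTSeq-Count, and versions and the strand setting are not given in the sources used here. The deposited values are raw counts per gene, 1 file per library, which the authors did not normalize. From these counts, TMM-scaled CPM and all tests were computed here with edgeR 4.0.16 in R 4.3.3. Genes were kept by filterByExpr, and the quasi-likelihood test was fitted on all 11 libraries with 1 mean per genotype and Benjamini-Hochberg adjustment over 17317 genes. Fold changes are those of the quasi-likelihood fit. A prior count of 2 was used only for the log2 CPM behind the correlations and the offset for GC content and gene length. Libraries were grouped by their genotype labels, which hold 2 wt libraries.

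Alternatives were DESeq2 1.42.0, RLE and upper-quartile factors, no filter or at least 10 counts in every library, fits on the groups compared, a block for the replicate number, a loess offset on GC content and exon length (span 0.3), leaving out each library, and leaving out Wnt9bKO 2 and DKO 3. The offset without those libraries was chosen after seeing the data. The 9 genes and all lists were chosen with earlier results of these data known. Named were the 9 genes, tested genes within 50 kb of them, and the called genes with the smallest p of each list. An item that this rule would name is not reported here. Gene positions are from GENCODE on GRCm38, and promoter sequences from RefSeq (GRCm38.p6).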

Additional observations from a re-analysis of the deposited data

How the results depend on the processing

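Over 22 alternative analyses and 63 pairs of gene and comparison, 1377 alternative values were computed. Of these, 1281 kept their direction and side of the threshold, 68 lost a call, 28 gained one and 0 of the called values changed sign, while 58 values that were not called changed sign. In Rspo2KO against wt, where 0 of 9 genes were called, 2 were called by DESeq2 (0.63% of all genes) and 2 without a filter on low counts (2.04%). The GC and length offset without Wnt9bKO 2 and DKO 3, which was chosen after seeing the data, called 1 (0.0934%). In DKO against Wnt9bKO the last of these called 1 (0.175% of all genes), against 0. In DKO against Rspo2KO, 3 were called with the offset (19.5%) and 3 with the offset and the replicate block (20.9%), against 5 (18.2%). In Wnt9bKO against Rspo2KO, 5 were called with the offset (26.8%) and 5 with the offset and the block (28.5%), against 3 (26%). Leaving out each library in turn gave 3 to 8 called in Wnt9bKO against wt, 3 to 7 in DKO against wt, 2 to 6 in DKO against Rspo2KO, 2 to 5 in Wnt9bKO against Rspo2KO, and 0 to 0 in the remaining comparisons. Where a wt library was left out, the lone wt library was assumed to vary like the other groups. Without a mutant library, 27.6% to 35.4% of all genes were called in Wnt9bKO against wt and 19.1% to 31.7% in DKO against wt. The share was 9.75% to 23.2% in DKO against Rspo2KO and 15.2% to 30.6% in Wnt9bKO against Rspo2KO. The cause of these shifts was not tested.

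With the replicate number as a block, 7 genes were called in Wnt9bKO against wt (35% of all genes) and 6 in DKO against wt (29.6%). In DKO against Rspo2KO 5 were called (20.1%), and in Wnt9bKO against Rspo2KO 3 (28%). In the other comparisons 0 were called (0.0404% to 0.15%). Correlations of same-numbered libraries' deviations from their group means ran from -0.11 to 0.10 for number 1, -0.08 to 0.10 for number 2 and 0.04 to 0.24 for number 3. Differently numbered libraries were not set beside them, so these values cannot decide whether the numbers pair the libraries. The fit on the groups compared cannot give the interaction. Depth limits the least abundant gene, *Foxd2*, to 128 counts in its lowest library.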
